A study of Mus musculus with 11 samples.

Results

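A set of 10 genes of the mesenchymal transcription programme was followed through the count table of the HT22 study. They are the zinc-finger repressors Snai1 and Snai2, the basic helix-loop-helix factors Twist1 and Twist2, the zinc-finger homeobox repressors Zeb1 and Zeb2, the homeobox factor Prrx1, and the markers Cdh2, Vim and Acta2. The genes were chosen by name, as the rows whose RefSeq accession maps to these symbols, with the row of highest mean count kept for each gene. Snai1, Vim and Zeb2 lie on chromosome 2, Prrx1 and Twist2 on chromosome 1, Twist1 on 12, Snai2 on 16, Zeb1 and Cdh2 on 18 and Acta2 on 19. All 10 were found among the 24080 genes of the table, and all 10 passed the filter on low counts that left 13498 genes for testing.

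Polyadenylated RNA was sequenced from HT22, a mouse hippocampal cell line immortalized with SV40 sequences, and from the derived line HT22[TR/TO-Klf9], which carries plasmids for the tetracycline repressor (pCDNA6:TR) and for Klf9 under tetracycline operators (pCDNA4:TO-Klf9). In this system the repressor represses the Klf9 construct until doxycycline releases it. Klf9 is a Krüppel-like zinc-finger transcription factor that binds GC-rich and CACCC sequences, and the study asked which genes respond to it. The libraries used were 1 of TR/TO-Klf9 cells given 0.5 µg/ml doxycycline, 2 of TR/TO-Klf9 cells given DMSO vehicle, 3 of parent cells given 0.5 µg/ml doxycycline and 3 of parent cells given vehicle. Treatment began 24 hours after plating and lasted 8 hours in every group. The stable line was kept in zeocin and blasticidin; the sources used here do not say whether it is 1 clone or which promoter drives Klf9. Effects of transfection, selection and Klf9 therefore cannot be told apart in comparisons between the lines.

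The SNAI, TWIST and ZEB proteins bind E-box sequences and are best known for the epithelial-to-mesenchymal transition, in which they silence E-cadherin and other epithelial genes while N-cadherin (Cdh2), vimentin (Vim) and, in contractile cells, smooth muscle actin (Acta2) are produced. Prrx1 acts in limb and craniofacial mesenchyme. In neural tissue, Cdh2 joins neural progenitors and synapses, Zeb2 acts in developing cortical and hippocampal neurons, and Vim is a filament protein of radial glia and astrocytes.

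Total counts of the libraries used ranged from 10279060 to 18858944 reads assigned to genes. The libraries labelled dox 1 and vehicle 3 of the TR/TO-Klf9 line held identical counts in every row and were left out of both groups, so the TR/TO-Klf9 dox group has 1 library and no SD of its own. Its tests rest on the spread of the other groups, which was not equal. The median absolute log2 ratio was 0.110 between TR/TO-Klf9 vehicle 1 and 2. It was 0.047 to 0.051 among parent dox libraries and 0.061 to 0.092 among parent vehicle libraries. The TR/TO-Klf9 dox library lay at 0.172 and 0.163 from TR/TO-Klf9 vehicle 1 and 2. The pooled spread may therefore be too small for TR/TO-Klf9 cells, and so may the SE and p-values. No label ties replicates to separate cultures. The spread behind each p-value is that between libraries and may be technical. Klf9, the induced gene, had 102 CPM (counts scaled to library size) in TR/TO-Klf9 dox 2, against 48.5 and 43.9 CPM in TR/TO-Klf9 vehicle 1 and 2. It had 39.7, 38.2 and 38.5 CPM in parent dox, against 41.6, 36.3 and 38.1 CPM in parent vehicle. Klf9 was thus already higher in the stable line under vehicle (log2 difference to parent cells 0.25 ± 0.07 SE, edgeR adjusted p = 0.0111). The identical library had 46.0 CPM of Klf9, inside the range of the TR/TO-Klf9 vehicle libraries and below the dox library. Its median absolute log2 ratio was 0.104 and 0.063 to TR/TO-Klf9 vehicle 1 and 2, and 0.138 to TR/TO-Klf9 dox 2. Of 10 neuron markers, 6 were under 1 CPM in every library, among them Rbfox3 and Map2, and Gad1 was at 0. Tubb3, also a neuron marker, lay between 10.8 and 35.4 CPM. Of 8 fibroblast markers only Lum was under 1 CPM in every library, and Col1a1 lay between 641 and 896 CPM. The fibroblast marker Dcn averaged 0.07 CPM in TR/TO-Klf9 vehicle and 14.9 CPM in parent vehicle.

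All 10 genes were expressed in every library. Per kilobase of transcript, Vim was the highest in each group, with 314 CPM per kb in TR/TO-Klf9 dox, 288 in TR/TO-Klf9 vehicle, 339 in parent dox and 310.4 in parent vehicle. In parent vehicle cells Twist2 came next at 68.3 CPM per kb, then Prrx1 at 46.9, Snai1 at 29.4, Twist1 at 25.7, Cdh2 at 25.5, Zeb1 at 22.7, Acta2 at 18.5, Zeb2 at 18.4 and Snai2 at 12.1. In TR/TO-Klf9 dox cells Acta2 stood second at 71.9 CPM per kb, ahead of Twist2 at 62.0, and Zeb2 was the lowest at 13.6. The group means of Acta2 spanned 1.95 on the log2 scale and those of Snai2 1.34. Twist1, Prrx1 and Zeb2 followed with spans of 0.52, 0.50 and 0.48, and the other 5 genes spanned 0.15 to 0.27.

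**Figure D1:**
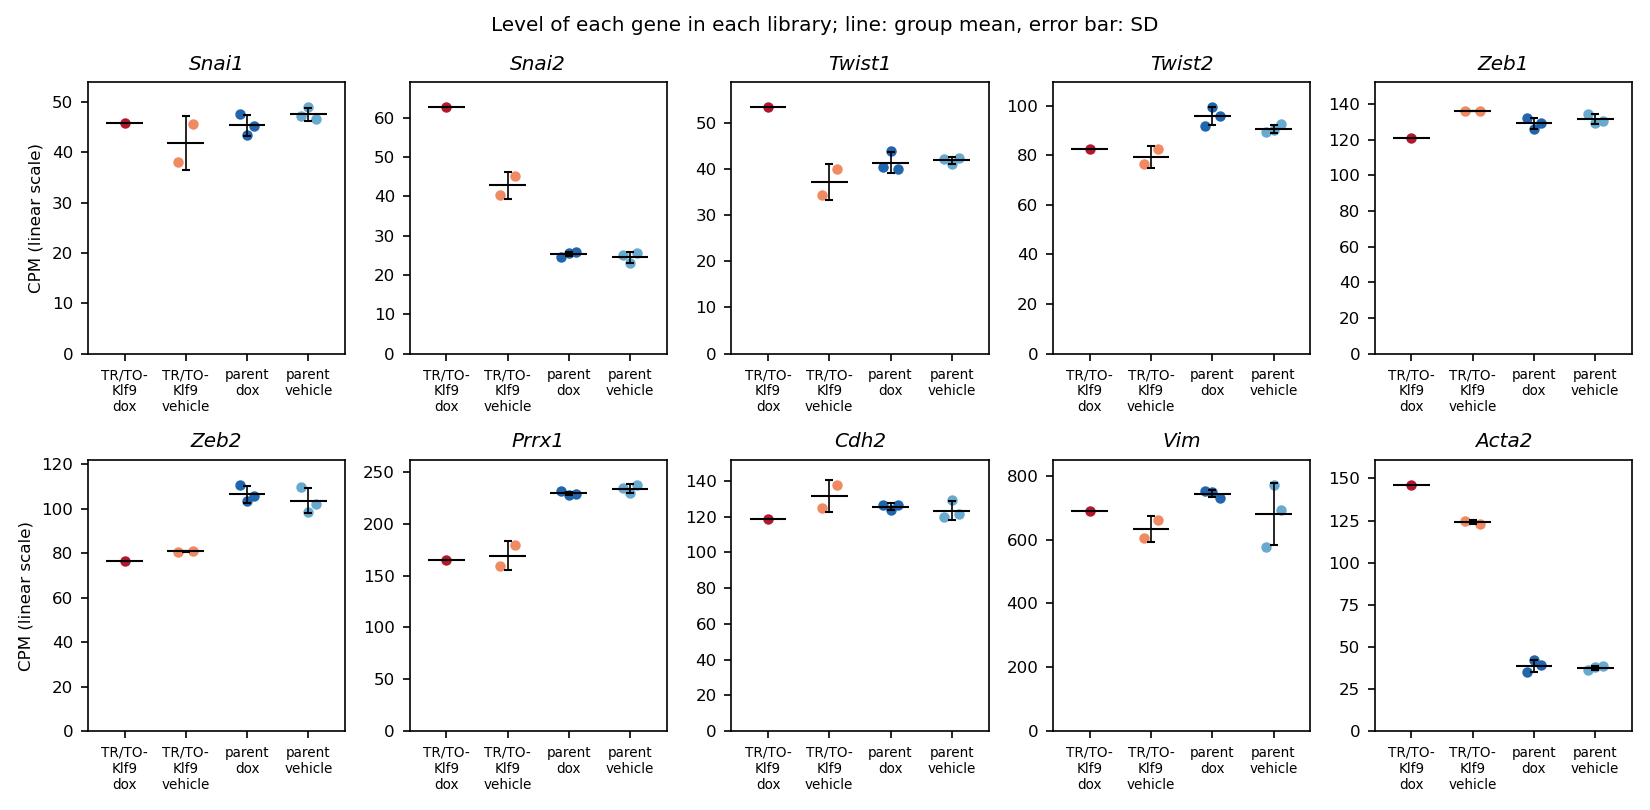
Level of each of the 10 genes in CPM (linear axis from 0) in each library of the 4 groups; points are libraries, horizontal lines group means and error bars the SD where a group has more than 1 library. Acta2 and Snai2 were higher in the TR/TO-Klf9 libraries than in every parent library, Prrx1 and Zeb2 were lower there, and Snai2 and Twist1 were highest in the TR/TO-Klf9 dox library.

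The first question was which of these genes changed with doxycycline in the line that induces Klf9. Snai2, Twist1 and Acta2 were higher in TR/TO-Klf9 dox than in TR/TO-Klf9 vehicle cells by edgeR's quasi-likelihood test with Benjamini-Hochberg adjustment over all genes tested, at a threshold of 0.05, and none of the 10 passed as lower. Of all genes tested, 18.1% passed in either direction, 7.8% upward and 10.3% downward. The median log2 fold change of the 10 genes was 0.09, beside 0.00 for all genes tested. In bulk RNA a different share of expressing cells and a different level per cell cannot be told apart. The dox library lay outside the range of the vehicle libraries for 8 of the 10 genes, 5 above and 3 below, where 75.4% of all genes did so.

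Snai2 encodes Slug, a repressor of the neural crest and of migrating epithelia. The gene (NM_011415) had 62.7 CPM in TR/TO-Klf9 dox, against 40.4 and 45.3 CPM in TR/TO-Klf9 vehicle. The dox library was above both vehicle libraries. The log2 fold change was 0.55 ± 0.09 (SE), a fold of 1.46, with an edgeR adjusted p of 0.000942. Snai1, which encodes the related repressor Snail, had 45.8 CPM in TR/TO-Klf9 dox, against 38.0 and 45.6 CPM in vehicle. Its value of 0.13 ± 0.10 (SE) on the log2 scale did not pass (edgeR adjusted p = 0.399), with an interval of 2 SE from -0.07 to 0.33.

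Twist1 (NM_011658), required for cranial mesenchyme and limb outgrowth, had 53.4 CPM in TR/TO-Klf9 dox, against 34.4 and 39.9 CPM in TR/TO-Klf9 vehicle. As for Snai2, the dox library was above both vehicle libraries. The log2 fold change was 0.52 ± 0.09 (SE), a fold of 1.43, with an edgeR adjusted p of 0.00182. Twist2, a paralog best known from dermal mesenchyme, had 82.4 CPM in TR/TO-Klf9 dox, inside the range of 76.3 and 82.6 CPM in vehicle. Its log2 fold change was 0.05 ± 0.07 (SE), with an edgeR adjusted p of 0.667 and an interval of 2 SE from -0.10 to 0.20. The sources used here do not say whether reads of Twist2 were counted by strand. Over the exons of all its annotated transcripts, 1477 bases are shared with the opposite-strand transcript Gm29100. The counted transcript has 1329 nucleotides, so not all of these bases lie in it.

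The TWIST promoters are shown because 1 of the pair rose and the other did not pass. Each line gives the 250 bases before the RefSeq start, 5′ to 3′ along the gene, from build GRCm38.p6. Capitals mark GC boxes (CCGCCC or its reverse complement GGGCGG). Twist1 lies at chr12:33957421-33957670 (+) and Twist2 at chr1:91801211-91801460 (+).
Twist1: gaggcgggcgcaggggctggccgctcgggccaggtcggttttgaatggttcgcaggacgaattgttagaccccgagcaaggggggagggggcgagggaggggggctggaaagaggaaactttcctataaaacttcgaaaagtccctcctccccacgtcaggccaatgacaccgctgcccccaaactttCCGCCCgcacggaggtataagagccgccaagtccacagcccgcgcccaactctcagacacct
Twist2: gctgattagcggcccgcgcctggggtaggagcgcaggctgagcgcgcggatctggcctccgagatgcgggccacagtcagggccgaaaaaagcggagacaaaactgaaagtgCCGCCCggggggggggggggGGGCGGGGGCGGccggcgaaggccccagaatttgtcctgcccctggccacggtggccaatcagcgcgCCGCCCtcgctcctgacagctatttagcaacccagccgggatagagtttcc
Twist1 holds 1 GC box, beginning 62 bases before the start, and Twist2 holds 4, beginning 138, 118, 112 and 51 bases before it, of which the middle pair abut. Of 32851 RefSeq promoter windows of this length, 32.7% hold a GC box on either strand. Neither TWIST window holds CACCC or its reverse complement GGGTG, which 52% of windows hold.

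Acta2 (NM_007392), the actin isoform of smooth muscle and myofibroblasts, had 146 CPM in TR/TO-Klf9 dox, against 125 and 123 CPM in TR/TO-Klf9 vehicle. The dox library was above both. The log2 fold change was 0.24 ± 0.08 (SE), a fold of 1.18, with an edgeR adjusted p of 0.0404, and only 10 of 21 alternative settings kept it past the threshold. DESeq2 gave an adjusted p of 0.178. The summed level of the 7 smooth muscle markers, Acta2 among them, was 305 CPM in TR/TO-Klf9 dox, against 246 to 279 CPM in vehicle, and none of the 4 others that were tested passed by edgeR. Acta2 belongs to the actin multigene family, and the sources used here do not say how reads shared between actins were counted.

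Among the remaining genes, Zeb1 had 121 CPM in TR/TO-Klf9 dox, against 136 CPM in both vehicle libraries, a log2 fold change of -0.17 ± 0.06 (SE; edgeR adjusted p = 0.0646). It passed in 6 of 21 alternative settings. Cdh2 had 119 CPM in TR/TO-Klf9 dox, against 125 and 138 CPM in vehicle, and did not pass (log2 -0.15 ± 0.07 SE, edgeR adjusted p = 0.172). Zeb2, Prrx1 and Vim had log2 values of -0.08, -0.04 and 0.12 with edgeR adjusted p of 0.516, 0.787 and 0.544. The 4 genes with negative values were those with the longest transcripts, 4843 to 5801 nucleotides, against 1329 to 2193 for the other 6. With the genome-wide trend of fold change on transcript length removed, Zeb1 stood at -0.01, Cdh2 at -0.03, Zeb2 at 0.08 and Prrx1 at 0.09. Under the same setting Snai2 stood at 0.52 and Twist1 at 0.47, with edgeR adjusted p of 0.00317 and 0.0092, and Acta2 at 0.21 with an adjusted p of 0.100.

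The rises of Snai2 and Twist1 rest on 1 dox library. The identical library had 47.0 CPM of Snai2, 40.0 of Twist1 and 129 of Acta2, nearer to the TR/TO-Klf9 vehicle values than to the dox values. Counted as a vehicle library, it left Snai2 at 0.51 and Twist1 at 0.49 on the log2 scale (edgeR adjusted p = 0.00109 and 0.00166). Counted as a dox library, it left them at 0.36 and 0.33 (edgeR adjusted p = 0.223 and 0.244). With this library under both labels, none of the 10 genes passed by edgeR, and with the TR/TO-Klf9 libraries fitted alone Snai2 and Twist1 kept their size but not the call (adjusted p = 0.120 and 0.165).

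**Figure D2:**
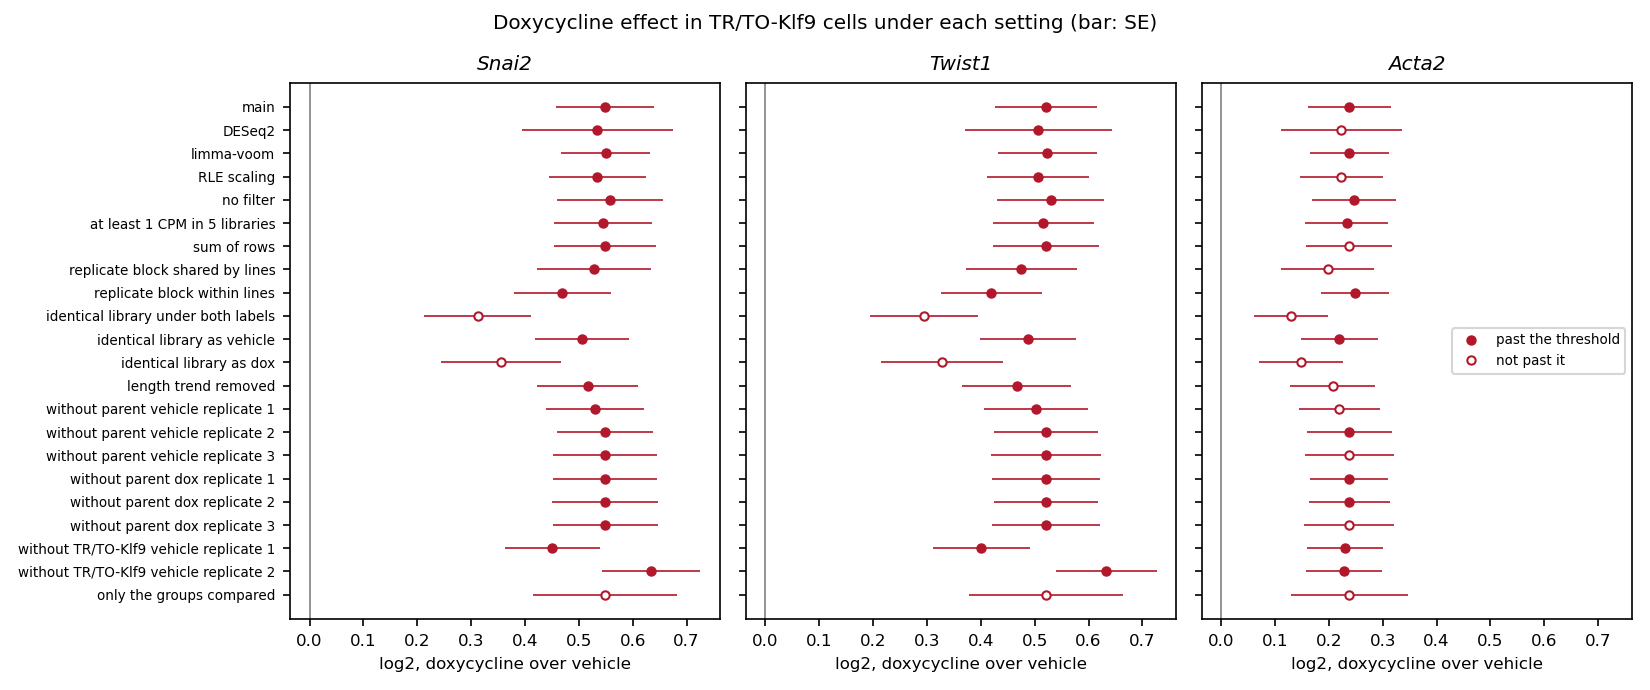
Log2 fold change of Snai2, Twist1 and Acta2 for doxycycline over vehicle in TR/TO-Klf9 cells (x axis) under the main setting and 21 alternatives (rows); bars are SE and filled points passed an adjusted p of 0.05. Snai2 lay between 0.31 and 0.63, Twist1 between 0.29 and 0.63 and Acta2 between 0.13 and 0.25, with 18, 18 and 10 alternatives past the threshold.

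In parent cells, which hold no inducible Klf9, none of the 10 genes passed the test for a doxycycline effect by edgeR. Their log2 values lay between -0.07 (Snai1) and 0.13 (Vim), with a median of 0.03 beside -0.00 for all genes tested, and 0% of all genes passed. Snai2 had 24.7, 25.5 and 25.7 CPM in parent dox, against 25.0, 23.0 and 25.6 CPM in parent vehicle. Twist1 had 40.3, 43.9 and 39.9 CPM in parent dox, against 42.2, 41.0 and 42.3 CPM in parent vehicle. For each of the 10 genes the parent dox and parent vehicle libraries overlapped, while 9.71% of all genes had groups that did not. The count of 0 genes came from edgeR, with 291 genes at an unadjusted p under 0.05; DESeq2 and limma-voom also called 0, with 40 and 306 such genes.

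Vim, the most abundant of the 10, varied most among parent vehicle libraries, at 578, 772 and 692 CPM. Its parent dox libraries had 751, 749 and 731 CPM, inside that range. Without parent vehicle 1, its difference between the lines under vehicle passed (log2 -0.20, edgeR adjusted p = 0.0134), whereas with all libraries it did not.

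**Figure D3:**
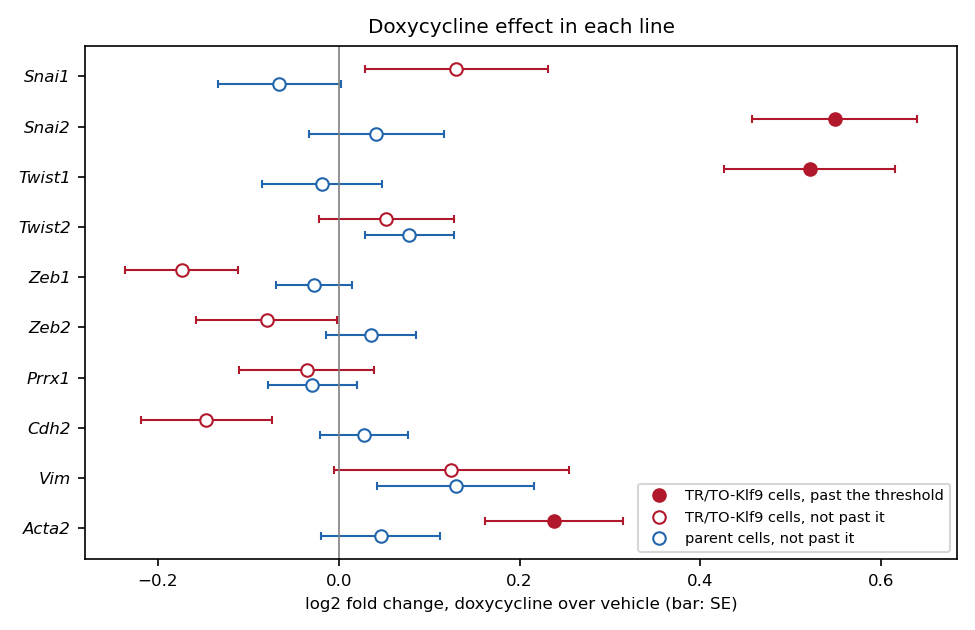
Log2 fold change of doxycycline over vehicle (x axis) for each of the 10 genes in TR/TO-Klf9 cells (red) and parent cells (blue); bars are SE and filled points passed an adjusted p of 0.05. Snai2 and Twist1 stand at 0.55 and 0.52 in TR/TO-Klf9 cells, and every parent value lies between -0.07 and 0.13.

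The difference of the doxycycline effects, TR/TO-Klf9 minus parent, was then tested as an interaction. Snai2 and Twist1 passed, both upward, where 9.53% of all genes passed in either direction, 3.37% upward and 6.16% downward. For Snai2 the difference was 0.51 ± 0.12 (SE) on the log2 scale, with an edgeR adjusted p of 0.0152. For Twist1 it was 0.54 ± 0.12 (SE), with an edgeR adjusted p of 0.00973. Snai2 did not pass under DESeq2, with a difference of 0.49 and an adjusted p of 0.0705. Acta2 did not pass (0.19 ± 0.10 SE, edgeR adjusted p = 0.248), nor did Snai1 (0.20 ± 0.12 SE, adjusted p = 0.337). The other 6 differences lay between -0.17 (Cdh2) and -0.00 (Vim), and the median over the 10 genes was -0.01, beside 0.01 over all genes. With the identical library counted as dox or under both labels, neither Snai2 nor Twist1 passed by edgeR.

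The next question was how the lines differ without doxycycline. Under vehicle, where Klf9 itself was higher in the stable line, Acta2 and Snai2 were higher in the stable line than in the parent line, and Prrx1, Zeb2 and Twist2 were lower. These 5 of 10 stand beside 39% of all genes past the threshold, 17.9% upward and 21.1% downward, so differences between the lines were common throughout the table. The median log2 difference of the 10 genes was -0.14, beside 0.00 for all genes. The groups did not overlap for 8 of the 10 genes, where 55% of all genes had groups that did not.

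Acta2 showed the widest difference of the 10, with 125 and 123 CPM in TR/TO-Klf9 vehicle, against 36.2, 37.9 and 38.6 CPM in parent vehicle. Every TR/TO-Klf9 library was above every parent library. The log2 difference was 1.73 ± 0.06 (SE), a fold of 3.31, with an edgeR adjusted p of 2.7e-12. The summed level of all 7 smooth muscle markers, Acta2 among them, was 246 to 279 CPM in TR/TO-Klf9 vehicle, against 217 to 228 CPM in parent vehicle. Of these markers Cnn1 and Myocd were under 1 CPM in every library. Of the 4 markers other than Acta2 that were tested, 1 was higher, averaging under 1 CPM in both groups, and 1 was lower. The lower one, Smtn, averaged 129 CPM in TR/TO-Klf9 vehicle and 178 CPM in parent vehicle (log2 -0.47 ± 0.08 SE, edgeR adjusted p = 0.000567). The higher sum thus reflects Acta2 and does not show a rise of the other markers.

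The Acta2 promoter is printed because this gene differed most between the lines; the window lies at chr19:34255374-34255623 (-) of GRCm38.p6, written 5′ to 3′ along the gene from RefSeq. Capitals mark CArG-like elements, the binding sequence of serum response factor: CC, then 6 letters of which at most 1 is not A or T, then GG, a form chosen after the sequence was seen.
Acta2: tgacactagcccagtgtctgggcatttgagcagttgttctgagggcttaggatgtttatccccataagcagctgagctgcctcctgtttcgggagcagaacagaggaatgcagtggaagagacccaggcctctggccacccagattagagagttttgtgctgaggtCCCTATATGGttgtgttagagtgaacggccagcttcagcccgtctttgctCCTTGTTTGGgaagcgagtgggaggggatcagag
The Acta2 window holds 2 such elements, beginning 84 and 34 bases before the start, and 1 CACCC, beginning 114 bases before it. Of the 32851 windows, 8.59% hold a CArG-like element and 52% a CACCC or GGGTG. Of the 7 genes with a window in the table, Snai1 alone holds the E-box CACCTG (reverse complement CAGGTG, in 17.2% of windows), beginning 126 bases before its start. TATAAA, searched on the gene's strand and present in 7.59% of windows, begins 126 bases before the start of Twist1 and 32 before that of Vim. These are matches of letters, and binding was not measured.

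Snai2 had 40.4 and 45.3 CPM in TR/TO-Klf9 vehicle, against 25.0, 23.0 and 25.6 CPM in parent vehicle. Every TR/TO-Klf9 library was higher. The log2 difference was 0.80 ± 0.08 (SE), a fold of 1.74, with an edgeR adjusted p of 3.9e-07. Its paralog Snai1 had 38.0 and 45.6 CPM in TR/TO-Klf9 vehicle, against 47.2, 49.0 and 46.5 CPM in parent vehicle, and did not pass (log2 -0.18 ± 0.08 SE, edgeR adjusted p = 0.0642). The SNAI pair thus stood at 42.9 ± 3.45 (Snai2) and 41.8 ± 5.37 CPM (Snai1; SD, n = 2) in TR/TO-Klf9 vehicle cells, against 24.5 ± 1.37 and 47.6 ± 1.27 CPM (SD, n = 3) in parent vehicle cells.

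Prrx1 had the lowest log2 difference of the 10 under vehicle, with 159 and 179 CPM in TR/TO-Klf9 vehicle, against 234, 229 and 238 CPM in parent vehicle. The groups did not overlap. The log2 difference was -0.47 ± 0.06 (SE; edgeR adjusted p = 5.4e-06), a fold of 0.724. Zeb2 had 80.6 and 81.1 CPM in TR/TO-Klf9 vehicle, against 109.9, 98.7 and 102 CPM in parent vehicle. These groups did not overlap either, and the log2 difference was -0.36 ± 0.06 (SE; edgeR adjusted p = 8.5e-05). Its paralog Zeb1 had 136 CPM in both TR/TO-Klf9 vehicle libraries, against 134, 129 and 130.3 CPM in parent vehicle, and did not pass (log2 0.05 ± 0.05 SE, edgeR adjusted p = 0.439). Without knowledge of strand, reads of Zeb2 cannot be told apart from those of the opposite-strand transcript Zeb2os over 653 shared exon bases. The same holds for Zeb1 and Gm10125 over 198. Both counts span the exons of all annotated transcripts of the gene.

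Twist2 had 76.3 and 82.6 CPM in TR/TO-Klf9 vehicle, against 89.4, 90.2 and 92.7 CPM in parent vehicle. The TR/TO-Klf9 libraries lay below the parent range, with a log2 difference of -0.19 ± 0.06 (SE; edgeR adjusted p = 0.0116). It lost the call in 4 of 22 alternatives, among them DESeq2 (adjusted p = 0.08) and the fit without TR/TO-Klf9 vehicle 1 (log2 -0.12, edgeR adjusted p = 0.0988). Twist1 did not pass under vehicle (log2 -0.17 ± 0.07 SE, edgeR adjusted p = 0.076), with 34.4 and 39.9 CPM in TR/TO-Klf9 cells, against 42.2, 41.0 and 42.3 CPM in parent cells. Cdh2 and Vim did not pass, with log2 differences of 0.09 and -0.10. The calls of Acta2, Snai2, Prrx1 and Zeb2 were kept in all 22 alternatives.

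Between the lines under doxycycline, 6 of the 10 genes passed, where 42.9% of all genes did so, 20.2% upward and 22.8% downward. The median log2 difference of the 10 genes was -0.09, beside 0.01 for all genes. Acta2, Snai2 and Twist1 were higher in TR/TO-Klf9 dox than in parent dox cells, and Prrx1, Zeb2 and Twist2 were lower. The dox library of TR/TO-Klf9 lay outside the parent dox range for 9 of the 10 genes, where 85.7% of all genes did so, and Snai1 was the exception.

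Acta2 had 146 CPM in TR/TO-Klf9 dox, against 35.1, 42.0 and 38.9 CPM in parent dox, a fold of 3.78 (log2 1.92 ± 0.08 SE, edgeR adjusted p = 1.93e-11). Snai2 had 62.7 CPM in TR/TO-Klf9 dox, against 24.7, 25.5 and 25.7 CPM in parent dox, a fold of 2.48 (log2 1.31 ± 0.09 SE, edgeR adjusted p = 1.45e-08). The order of the Snai2 levels was TR/TO-Klf9 dox, TR/TO-Klf9 vehicle, then both parent groups, which overlapped each other. Twist1 had 53.4 CPM in TR/TO-Klf9 dox, against 40.3, 43.9 and 39.9 CPM in parent dox (log2 0.37 ± 0.09 SE, edgeR adjusted p = 0.00329). With the identical library counted as dox, Twist1 stood at 0.18 and did not pass (edgeR adjusted p = 0.183), while Acta2 stood at 1.83 and Snai2 at 1.12 and both passed.

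Prrx1 had 165 CPM in TR/TO-Klf9 dox, against 231, 228 and 229 CPM in parent dox (log2 -0.47 ± 0.07 SE, edgeR adjusted p = 6.33e-05). Zeb2 had 76.5 CPM in TR/TO-Klf9 dox, against 111, 103 and 106 CPM in parent dox (log2 -0.48 ± 0.07 SE, edgeR adjusted p = 7.41e-05). Twist2 had 82.4 CPM in TR/TO-Klf9 dox, against 92.1, 99.5 and 95.8 CPM in parent dox (log2 -0.22 ± 0.07 SE, edgeR adjusted p = 0.0205). It passed in 19 of 21 alternatives, and neither under DESeq2 (adjusted p = 0.0779) nor without parent dox 2 (log2 -0.19 by edgeR). Each of the 3 lay below every parent dox library. The line differences under vehicle and under doxycycline use different libraries, and for Prrx1, Zeb2, Twist2, Acta2 and Snai2 the direction was the same. Both compare the same lines in the same fit, and the doxycycline side holds 1 TR/TO-Klf9 library. They are therefore not independent repeats of a line difference.

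**Figure D4:**
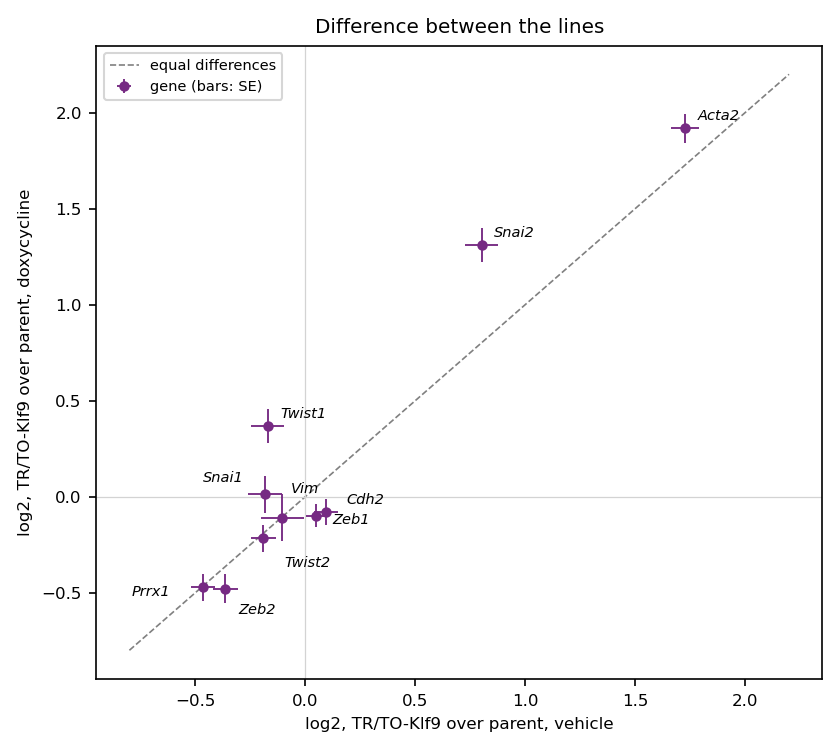
Log2 difference of TR/TO-Klf9 over parent cells under vehicle (x axis) and under doxycycline (y axis) for the 10 genes; bars are SE and the dashed line marks equal differences. Acta2 (1.73 and 1.92) and Snai2 (0.80 and 1.31) lie to the upper right, and Prrx1 and Zeb2 to the lower left. Snai2 and Twist1 stand above the dashed line, as do Acta2 and Snai1 by less.

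Genes that work with the 10 were described from lists of known partners. Among 18 cofactors and turnover regulators of the SNAI and ZEB proteins, 4 fell and none rose with doxycycline in TR/TO-Klf9 cells by edgeR, with a list median of -0.13 on the log2 scale beside 0.00 for all genes. Of all genes, 7.8% rose and 10.3% fell. Leaving out 1 library at a time gave 0 to 1 that rose and 3 to 7 that fell, with 7 in the fit without TR/TO-Klf9 vehicle 1 and 6 in those without TR/TO-Klf9 vehicle 2 or parent vehicle 1. Rcor1, a scaffold of the LSD1 corepressor that SNAI proteins recruit, averaged 65.4 CPM in TR/TO-Klf9 dox and 85.3 CPM in TR/TO-Klf9 vehicle (log2 -0.38 ± 0.08 SE, edgeR adjusted p = 0.00476). Gsk3b, a kinase that marks Snail for degradation, averaged 176 CPM in TR/TO-Klf9 dox and 216 CPM in vehicle (log2 -0.29 ± 0.07 SE, edgeR adjusted p = 0.00958). Usp27x and Smad2 fell by 0.74 and 0.20 on the log2 scale. With the length trend removed, Rcor1 (-0.38) and Usp27x (-0.72) still passed, while Gsk3b stood at -0.04 and Smad2 at 0.04 and did not.

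Among 7 tested basic helix-loop-helix partners and inhibitors of Twist, 2 rose and none fell, with a list median of 0.01. Fits that left out 1 library gave 1 to 3 that rose and 0 to 1 that fell. The 2 that rose were Id2 (56.3 CPM in TR/TO-Klf9 dox and 45.7 CPM in vehicle, log2 0.30 ± 0.08 SE, edgeR adjusted p = 0.0215) and Id1 (log2 0.28 ± 0.09 SE, edgeR adjusted p = 0.0402). Id proteins lack a DNA-binding region and sequester the E proteins with which Twist factors pair. Neither passed by DESeq2 or with the length trend removed.

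Among 17 tested serum response factor and actin cytoskeleton genes, 1 rose and 2 fell, with a list median of -0.00. Across fits without 1 library, 0 to 2 rose and 1 to 3 fell, and the highest counts came without TR/TO-Klf9 vehicle 2. Mrtfb, an actin-sensing coactivator of serum response factor, averaged 73.1 CPM in TR/TO-Klf9 dox and 98.7 CPM in vehicle (log2 -0.43 ± 0.07 SE, edgeR adjusted p = 0.000507). With the length trend removed it stood at -0.27 (edgeR adjusted p = 0.0218), and with the compared groups alone it did not pass (edgeR adjusted p = 0.171). Mrtfa, its paralog, fell by 0.20 and Tpm2, a tropomyosin, rose by 0.22 on the log2 scale, with edgeR adjusted p of 0.0483 and 0.0465, and neither passed by DESeq2. Among 25 tested mesenchymal effector genes, 1 rose and none fell, with a list median of 0.00. With 1 library left out, 1 to 3 rose and 0 to 2 fell, with 3 that rose without TR/TO-Klf9 vehicle 2 and 2 that fell without TR/TO-Klf9 vehicle 1. The 1 that rose was Foxc1, a forkhead factor of periocular and vascular mesenchyme, with 44.8 CPM in TR/TO-Klf9 dox and 32.3 CPM in vehicle (log2 0.47 ± 0.10 SE, edgeR adjusted p = 0.00539). No gene passed among 8 tested cadherins and catenins, 6 other intermediate filament genes and the 4 of 20 epithelial genes that were tested. In parent cells no gene of any list passed with doxycycline by edgeR. Of the genes named from these lists, Mrtfb, Gsk3b, Rcor1 and Id2 passed the edgeR test of the difference of the effects. Foxc1 did not, with log2 0.17 in parent cells and a difference of 0.30. Neither did Id1, Usp27x, Smad2, Mrtfa and Tpm2, so their changes are not shown to differ between the lines.

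Under vehicle, the list counts stand beside 17.9% of all genes higher and 21.1% lower in the stable line. Of 25 mesenchymal effector genes, 11 were higher and 4 lower in TR/TO-Klf9 cells, with a median of 0.14 beside 0.00 for all genes. The 4 lower became 2 without TR/TO-Klf9 vehicle 1 or parent vehicle 3, and 6 was the highest count with 1 library left out. Thbs1, a matricellular protein, averaged 475 CPM in TR/TO-Klf9 and 175 CPM in parent cells (log2 1.44 ± 0.08 SE, edgeR adjusted p = 2.58e-09). Pdgfrb, the receptor that marks pericytes and fibroblasts, averaged 64.9 CPM in TR/TO-Klf9 and 36.7 CPM in parent cells (log2 0.81 ± 0.08 SE, edgeR adjusted p = 9.56e-07). Of 17 serum response factor and actin genes, 5 were higher and 3 lower, with a median of -0.00. They held Filip1l (log2 0.92) among the higher and Cald1 (-0.43) and Tpm2 (-0.41) among the lower, beside 1.73 for Acta2.

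Of 7 Twist partners and inhibitors, 1 was higher and 2 were lower, with a median of 0.08: Id2 at 0.46, Tcf3 at -0.42 and Id4 at -1.86 on the log2 scale, the last with 1.45 CPM in TR/TO-Klf9 and 5.14 CPM in parent cells. Of 18 SNAI and ZEB cofactors and turnover genes, 4 were higher and 3 lower, with a median of 0.06; Gsk3b (0.38) led the higher and Fbxl14 (-0.40), an F-box protein that targets Snail, the lower. Of 8 cadherins and catenins other than Cdh2, 3 were higher and 1 lower, with a median of 0.26, and 1 was higher and 1 lower of 7 tested without TR/TO-Klf9 vehicle 1. Jup, which encodes plakoglobin, averaged 92.4 CPM in TR/TO-Klf9 and 48.1 CPM in parent cells (log2 0.94 ± 0.06 SE, edgeR adjusted p = 3.17e-09). Cdh1, the E-cadherin gene that the SNAI and ZEB proteins repress, was low, at 6.22 CPM in TR/TO-Klf9 and 3.64 CPM in parent cells (log2 0.76 ± 0.21 SE, edgeR adjusted p = 0.00778). Without TR/TO-Klf9 vehicle 1, Cdh1 stood at 0.47 and did not pass (edgeR adjusted p = 0.121), nor did Ctnna1, the alpha-catenin gene (log2 0.16, edgeR adjusted p = 0.116). Epithelial genes and other intermediate filament genes each had 2 higher and 0 lower, of 4 and 6 tested, with medians of 0.42 and 0.11. Besides Cdh1, these were Grhl2, Nes and Prph, at 1.05, 1.23 and 0.72 CPM in TR/TO-Klf9 vehicle. In parent vehicle they averaged 0, 0.27 and 0.14 CPM, near the floor. Neither list kept these calls without TR/TO-Klf9 vehicle 1.

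**Figure D5:**
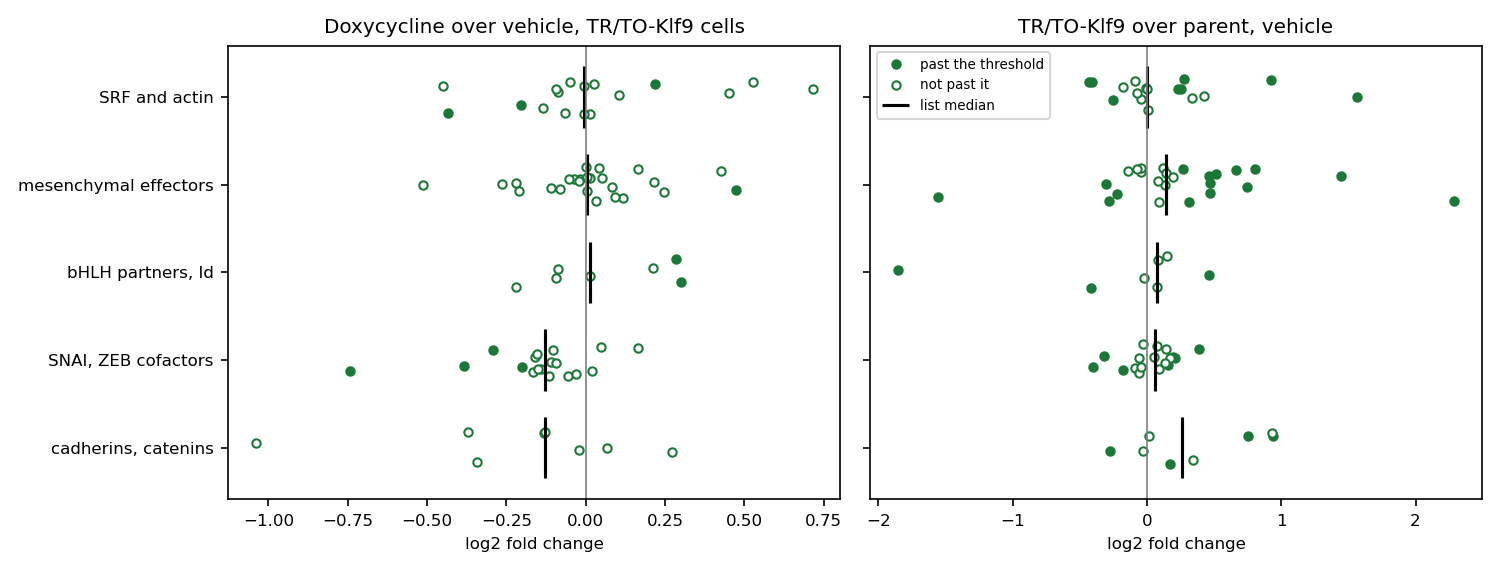
Log2 fold change (x axes) of the tested genes of 5 lists of partners, the 10 genes themselves left out, for doxycycline over vehicle in TR/TO-Klf9 cells (left) and for TR/TO-Klf9 over parent cells under vehicle (right); filled points passed an adjusted p of 0.05, black bars are list medians and vertical jitter separates points. In the left panel 4 SNAI and ZEB cofactors fell and 1 of 25 mesenchymal effectors rose, beside 10.3% and 7.8% of all genes. In the right panel 11 of those effectors were higher and 4 lower, beside 17.9% and 21.1% of all genes.

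Under doxycycline, 20.2% of all genes were higher and 22.8% lower in the stable line. The same lists held 9 mesenchymal effectors that were higher and 4 that were lower there, with a median of 0.11 beside 0.01 for all genes. The serum response factor and actin list held 4 higher and 6 lower, with a median of -0.15, and Tagln, a smooth muscle actin-binding protein, averaged 6.42 CPM in TR/TO-Klf9 dox and 2.83 CPM in parent dox cells (log2 1.18 ± 0.26 SE, edgeR adjusted p = 0.00175). The cofactor list held 0 higher and 6 lower, with a median of -0.09, and 4 to 8 were lower with 1 library left out. The Twist partner list held 3 higher and 2 lower, with a median of 0.05, led by Id2 at 0.92 (edgeR adjusted p = 2.85e-07). Cadherins and catenins held 1 higher and 1 lower, and other intermediate filament genes 1 higher and 0 lower. That intermediate filament gene was Nes, at only 0.85 CPM in TR/TO-Klf9 dox and 0.12 CPM in parent dox.

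The genes whose pattern over the 4 groups lay closest to Snai2, Acta2 and Twist1 were found among 10842 genes of at least 5 CPM, by the root mean square difference of centred log2 group means. Nearest to Snai2 were Edn1 (0.05), Ccl9 (0.07) and Ttll11 (0.07). Edn1, the endothelin precursor gene, averaged 57.3 CPM in TR/TO-Klf9 dox, 41.6 in TR/TO-Klf9 vehicle, 25.2 in parent dox and 23.9 in parent vehicle. Nearest to Acta2 were Tmem119 (0.08), Aspa (0.09) and G730013B05Rik (0.09), all under 25 CPM in every group. Nearest to Twist1 were C630043F03Rik (0.008), Znhit2 (0.010) and Rgs10 (0.012). These are likenesses over 4 group means and carry no test.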

How the data were processed

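Per the labels' protocols, TRIzol-extracted total RNA was made into oligo-dT-primed Illumina libraries. The table the authors deposited holds unnormalized read counts of 11 libraries by RefSeq accession, as its whole numbers show. The submitters' processing notes name Bowtie, DESeq, CASAVA and FastQC and the build mm8. How reads were counted, on which strand, against which annotation release and with which versions is not given in the sources used here. Accessions were paired with symbols through a RefSeq gene table and, where it held none, through GENCODE (32685 of 32923). The row of highest mean was kept per gene. The 2 libraries with identical counts were left out. CPM use TMM library sizes. Lengths come from the GENCODE transcripts paired with the RefSeq accessions, and exon overlaps from GENCODE exons.

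All 9 other libraries entered 1 fit of 4 group means (edgeR 4.0.16, filterByExpr, TMM, robust quasi-likelihood, R 4.3.3), with 5 residual degrees of freedom and Benjamini-Hochberg adjustment over 13498 genes at 0.05; the SE was derived as log2 fold change divided by the root of F. The alternatives tried were RLE scaling, DESeq2 1.42.0, limma-voom 3.58.1, other filters, summed rows, replicate blocks, the identical library under either or both labels, a length-trend offset (loess span 0.4, lengths for 98.1% of genes), the compared groups alone, and each library left out. Replicate numbers were not taken to pair libraries.

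The 10 genes and all lists, including the marker lists for neurons, fibroblasts, smooth muscle, astrocytes, endothelium and microglia, were chosen with earlier results of these data known. From each list at most 4 genes per comparison are named, those past the threshold with the smallest adjusted p and at least 5 CPM in the higher group. Promoters come from RefSeq (GRCm38.p6), which held 7 of the 10 genes. Counts were simulated for the TR/TO-Klf9 doxycycline comparison over 13498 genes, with changes placed in genes of at least 5 CPM. Of 1.5-fold changes 85.1% were recovered, and of 2-fold changes 98.5%, with 8 false calls. Every group was drawn with the same spread and no length trend. The TR/TO-Klf9 vehicle libraries differed more than the parent libraries did, so these rates may not hold for the stable line.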

Additional observations from a re-analysis of the deposited data

Results flagged for a closer look

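The doxycycline effect on Snai2 differed between the lines by 0.51 on the log2 scale (0.5071 ± 0.12 SE, edgeR adjusted p = 0.0152), at 0.55 in TR/TO-Klf9 cells and 0.04 in parent cells. The effect on Twist1 differed by 0.54 (0.5392 ± 0.12 SE, edgeR adjusted p = 0.00973), at 0.52 in TR/TO-Klf9 cells and -0.02 in parent cells. Both were brought up by the test of the difference itself, and both rest on TR/TO-Klf9 dox 2 alone. Over the alternatives Snai2 lay between 0.27 and 0.59 and passed in 16 of 20, and Twist1 lay between 0.31 and 0.65 and passed in 18 of 20.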

How the results depend on the processing

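Of 1060 recomputed values of the 10 genes, 995 kept their side of the threshold, 31 lost a call, 21 gained one, 13 uncalled values changed sign by over 1 SE and 0 reversed; among the 995 a sign changed only where neither setting passed, by at most 1 SE. For doxycycline in TR/TO-Klf9 cells, 3 of the 10 genes and 2446 of all genes passed in the main fit. The replicate block within lines gave 5 of the 10. With the identical library under both labels or as dox, 0 of the 10 and 0 genes passed. At an unadjusted p under 0.05 by edgeR these 2 settings held 1506 and 2034 genes. The compared groups alone gave 0 of the 10 and 77 genes. DESeq2 called 1316 genes, the replicate block shared by lines 1335 and the length-trend offset 1414. Leaving out each library gave 2 to 5 of the 10 genes and 1892 to 3791 genes.

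For the difference of the effects, with 2 of the 10 genes and 1287 genes, DESeq2 gave 1 and 711, the replicate block shared by lines 1 and 554, and the identical library under both labels or as dox 0 and 0 (669 and 1067 at an unadjusted p under 0.05 by edgeR). The replicate block within lines called 1944 genes, the length-trend offset 480, and leaving out each library 565 to 2905, with 2905 without TR/TO-Klf9 vehicle 2. The cause of these shifts was not tested.

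Higher calls made up 43% of all calls for doxycycline in TR/TO-Klf9 cells, against 18.5% under DESeq2 and 53.3% with the length trend removed; for the difference they made up 35.4%, against 6.47% under DESeq2. Without TR/TO-Klf9 vehicle 1, Snai2, Twist1 and Snai1 stood at 0.45, 0.40 and -0.01 for doxycycline in TR/TO-Klf9 cells and Cdh2 passed at -0.23. Without TR/TO-Klf9 vehicle 2 they stood at 0.63, 0.63 and 0.27, and Snai1 passed (edgeR adjusted p = 0.0363). Deviations of same-numbered parent libraries correlated at -0.0462, 0.0109 and 0.0184, so no pairing by number was seen in the parent line. Pairing in the TR/TO-Klf9 line was not tested. The counts of all genes called between the lines stayed within 1.5 times; their higher calls under doxycycline numbered 1737 by DESeq2 and 2724 by edgeR. The effects in TR/TO-Klf9 cells give no value without TR/TO-Klf9 dox 2, and the difference has no fit on fewer groups. Depth limits the 10 genes little, with at least 231 reads in every library.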

Other observations

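Among the marker lists, Csf1r, a myeloid receptor gene, averaged 12.4 CPM in TR/TO-Klf9 vehicle and 1.75 CPM in parent vehicle cells (log2 2.74 ± 0.20 SE, edgeR adjusted p = 2.43e-08), while the other 4 microglia markers were under 1 CPM in every library. Summed microglia markers lay at 12.5 to 14.5 CPM in TR/TO-Klf9 vehicle and 1.59 to 2.66 CPM in parent vehicle cells. Postn, which encodes periostin, averaged 27.9 CPM in TR/TO-Klf9 vehicle and 10.9 CPM in parent vehicle cells (log2 1.35 ± 0.09 SE, edgeR adjusted p = 1.13e-08), and Dcn, which encodes decorin, averaged 0.074 CPM and 14.9 CPM in the same groups. Summed fibroblast markers lay at 2782 to 2860.2 CPM in TR/TO-Klf9 vehicle and 2367 to 3108 CPM in parent vehicle cells.

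Summed neuron markers, mostly Tubb3, lay at 18.2 to 22.2 CPM in TR/TO-Klf9 vehicle and 34.5 to 35.1 CPM in parent vehicle cells. Summed astrocyte markers lay at 18.1 to 23.4 CPM and 24.3 to 25.4 CPM, and summed endothelial markers at 9.55 to 11.1 CPM and 7.14 to 8.15 CPM, in the same groups.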
